A study of Mus musculus with 2 samples.

Results

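The 33 genes described here carry glucose through glycolysis to pyruvate and lactate: glucose transporters, the glycolytic enzymes, lactate dehydrogenases, lactate carriers and the mitochondrial pyruvate genes. They were chosen by symbol from a fixed list rather than by measured values, though earlier results of these data were known when the list was set. All were present in both count matrices. They account for 34 of 32286 features, because Aldoa is listed under 2 gene identifiers, whose counts were summed.

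The libraries were made by droplet single-cell RNA sequencing (10x Genomics 3′ chemistry) of papain-dissociated optic cup from Abca4KO mice, which lack the photoreceptor retinoid transporter Abca4. Per the series design, 1 eye received a sponge for miR-181a/b, a transcript that binds these microRNAs, and the contralateral eye a control vector, by subretinal injection at 2 months of age. Labels name the vectors AAV2.8-Sponge.mir181 and AAV2.8-GFP, and both groups carried the Abca4KO genotype and an injected vector. The design places collection 4 months after injection, but each sample is labelled 4 months old, and this disagreement was not resolved. Neither an uninjected eye nor a mouse with intact Abca4 was among the samples, and the promoter of each vector and the number of mice per library are not given in the sources used here. Each group held 1 library, so no difference between the libraries could be tested and every interval covers counting error only.

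Glycolysis splits glucose into pyruvate in the cytosol. Pyruvate is then either reduced to lactate, which leaves the cell through monocarboxylate carriers, or taken into mitochondria and oxidised. Photoreceptors are known for turning much of their glucose into lactate even when oxygen is present, with hexokinase 2 and lactate dehydrogenase A as characteristic isoforms. The retinal pigment epithelium (RPE) passes glucose from the choroid to them through GLUT1 and takes up and exports lactate through monocarboxylate carriers that need the chaperone basigin.

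Promoter sequence from RefSeq (build GRCm38.p6, which is mm10) was matched by symbol for 30 of the 33 genes, and not for Slc2a3, Slc16a7 and Bsg. The 250 bases upstream of each listed start were searched on both strands for the letters ACGTG and, as a second form, the letters GCGTG, which are the core of the element bound by hypoxia-inducible factors, known inducers of glycolytic genes. ACGTG also lies inside the E-box CACGTG, so the searches overlap. A window held either form in 26 of 30 members (86.7%), against 41.5% of 27025 genes. Counted by window rather than by gene, 36 of 47 member windows (76.6%) and 38.6% of 32851 windows held a match. ACGTG alone was found for 14 members (46.7%, against 18.5% of genes), GCGTG for 20 (66.7%, against 30.9%) and CACGTG for 6 (20.0%, against 6.86%). GGATTA, the core letters for the photoreceptor factor CRX, was found for 4 members (13.3%, against 7.21% of genes). These are letter matches and do not show binding. Windows follow, each ending at the base before the start, for Ldha, Ldhb, Hk2, Slc16a1 and Slc16a8. Their isoform shares differed widely between cell classes, as did that of Hk1, which is not printed. Capitals mark both forms and their reverse complements.
Ldha (chr7:46845554-46845803, plus strand): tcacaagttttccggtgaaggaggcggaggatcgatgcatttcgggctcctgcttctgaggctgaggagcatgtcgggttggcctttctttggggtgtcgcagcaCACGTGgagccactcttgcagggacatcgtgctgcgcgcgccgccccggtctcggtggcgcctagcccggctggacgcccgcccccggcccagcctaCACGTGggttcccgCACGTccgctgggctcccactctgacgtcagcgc
Ldhb (chr6:142507958-142508207, minus strand): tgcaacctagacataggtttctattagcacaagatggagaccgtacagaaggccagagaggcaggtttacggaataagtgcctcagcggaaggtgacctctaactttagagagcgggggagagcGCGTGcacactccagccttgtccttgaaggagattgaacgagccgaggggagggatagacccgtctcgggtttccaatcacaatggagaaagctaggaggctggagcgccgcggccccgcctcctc
Hk2 (chr6:82774455-82774704, minus strand): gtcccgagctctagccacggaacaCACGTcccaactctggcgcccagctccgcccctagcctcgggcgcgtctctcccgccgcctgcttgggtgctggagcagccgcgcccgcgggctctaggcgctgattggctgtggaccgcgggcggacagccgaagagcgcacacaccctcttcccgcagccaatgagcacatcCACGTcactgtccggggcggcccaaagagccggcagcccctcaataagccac
Slc16a1 (chr3:104638414-104638663, plus strand): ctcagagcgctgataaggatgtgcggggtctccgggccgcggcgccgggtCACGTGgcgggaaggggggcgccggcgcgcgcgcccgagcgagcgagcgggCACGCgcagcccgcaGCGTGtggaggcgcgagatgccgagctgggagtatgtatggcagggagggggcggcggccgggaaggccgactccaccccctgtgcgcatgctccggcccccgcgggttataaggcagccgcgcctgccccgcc
Slc16a8 (chr15:79254749-79254998, minus strand): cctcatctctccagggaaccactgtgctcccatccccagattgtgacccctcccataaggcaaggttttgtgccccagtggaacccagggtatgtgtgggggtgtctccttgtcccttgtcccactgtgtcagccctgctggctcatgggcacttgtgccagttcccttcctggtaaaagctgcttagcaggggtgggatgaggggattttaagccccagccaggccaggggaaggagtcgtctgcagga
The Ldha window, the first of 2 listed starts, held 5 overlapping or separate matches, and the Ldhb window held 1. The window of Slc16a1 held 4 matches, that of Hk2 held 2, and none lay in the Slc16a8 window.

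The GFP-labelled library held 39285 kept cells (median 2415 unique molecular identifiers, UMIs) and the sponge-labelled library 23200 (median 2980.5), from total counts of 123040365 and 132067896 UMIs. The eGFP sequence went against the labels, with 12 UMIs in the GFP-labelled library and 5484 in the sponge-labelled library, so directions below refer to the labels alone. Paired values give the GFP-labelled library first unless the sentence says otherwise. Cells were clustered without the glycolysis genes, and 14 cell classes or clusters, named as resembling a class from fixed markers, held 71.4% and 65.5% of kept cells. The labelled tissue is optic cup, yet clusters resembling surface epithelium, melanocytes and fibroblasts were present in both libraries beside the retinal and RPE classes. Müller glia were compared as clusters 3 and 9, because cluster 9 is led by the astrocyte marker Gfap. Left out were a cluster led by haemoglobin genes (9.49% and 23.6% of cells), Müller cluster 23 (13 and 332 cells) and 5 other clusters that could not be named or compared (19.1% and 9.48%). The libraries shared 290 cell barcodes. Median mitochondrial share was lower in the sponge-labelled library in all 14 classes, for instance 9.87% and 3.78% in Müller cluster 3 and 9.89% and 5.10% in endothelial-like cells. Median UMIs per cell were higher there in 12 of the 14, such as 2428 and 7349 in Müller cluster 3. In that cluster the Hk2 log2 ratio given below was -1.95 in cells of at most 10% mitochondrial counts and -1.45 after thinning every cell to one depth.

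Rod RNA was found in every class. The summed level of 12 rod markers reached 21.1% to 74.2% of the rods' level in the other 13 classes of the GFP-labelled library, and 6.49% to 55.9% in the sponge-labelled library. This bears on genes that rods hold at high level. For each gene, the rods' level times the rod marker share of the class is given below as the level that rod RNA would carry. It is an estimate, and too high for cones, which use some rod markers themselves. It can be too high in other classes as well, since it exceeded the measured level of some genes there. Levels are counts per 1e+06 UMIs of the class (CPM). A 3′ UMI counts a transcript once whatever its length, but capture differs between genes, so levels are compared between classes within a gene.

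Levels differed between classes (heat maps of level by class). The highest class was the same in both libraries for 21 of 33 genes. The intervals of the highest and second classes overlapped for 18 genes in the GFP-labelled library and 10 in the sponge-labelled library, so many of these leads were narrow. Endothelial-like cells led for Slc2a1, Slc16a1, Bsg and Pdk1, and RPE-like cells for Ldhb, Slc16a8, Mpc1 and Pdk2. Rod-like cells led for Hk1, Pfkfb2 and Ldha, and cone-like cells for Hk2 and Eno2. Amacrine-like cells led for Slc2a3, Pfkp and Slc16a7, and Müller cluster 9 led for Aldoc and Eno1. Microglia and macrophage-like cells led for Pfkfb3, surface epithelium-like cells for Mpc2, and T and NK-like cells for Pdhb. The other 12 genes, among them Aldoa, Gapdh, Pgk1 and Pkm, had their highest level in rods or cones in the GFP-labelled library, apart from Eno3 and Slc16a3, and in a different class in the sponge-labelled library.

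**Figure D1:**
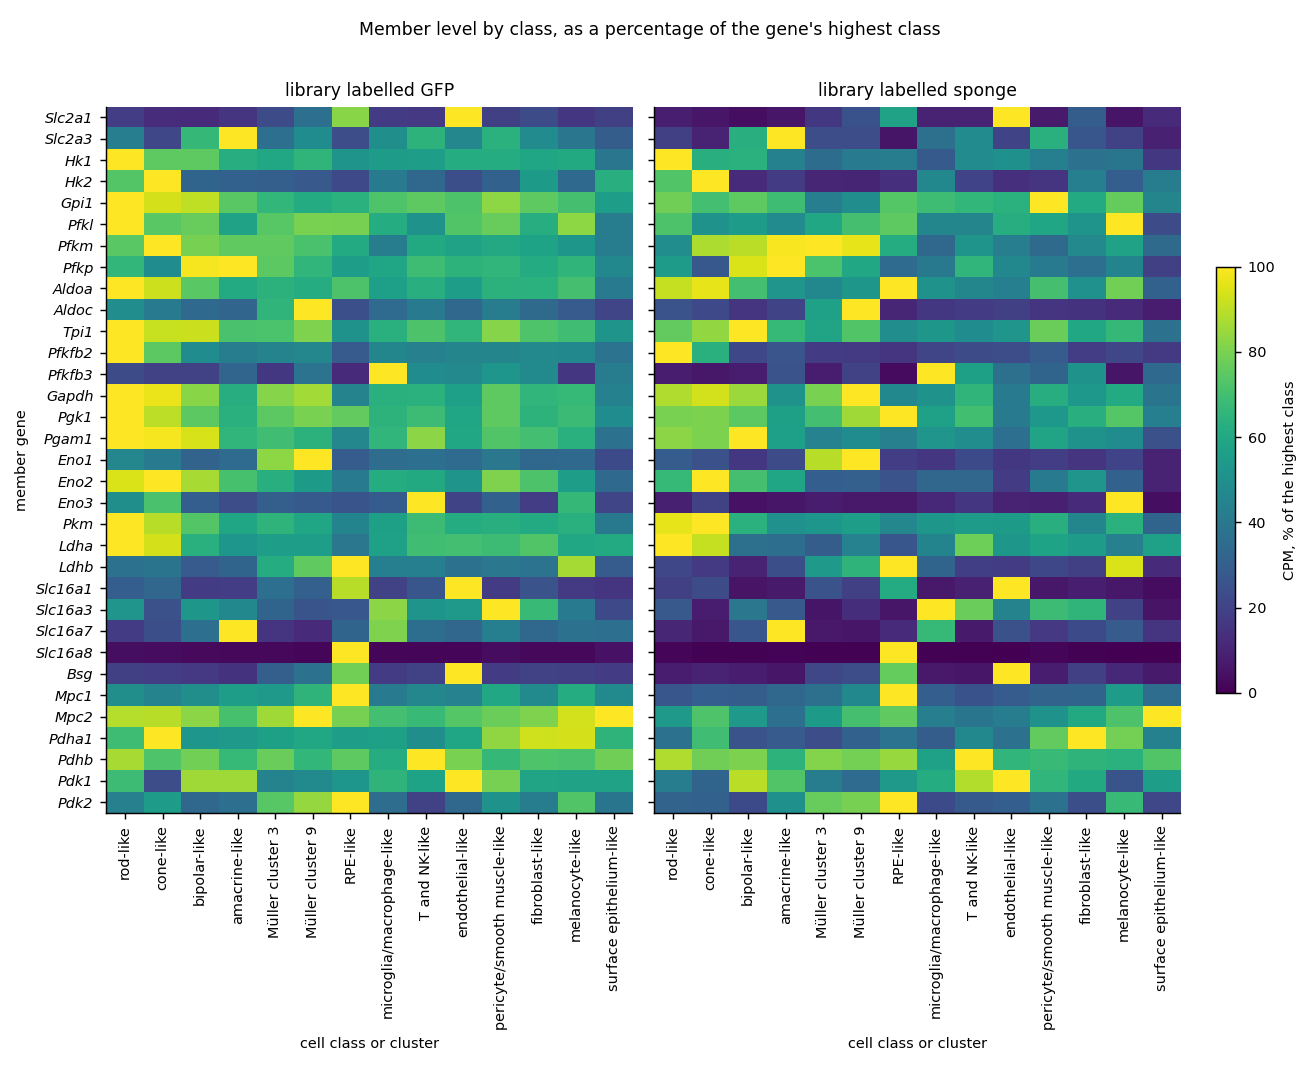
Level of each of the 33 genes in 14 classes or clusters (columns) as a percentage of that gene's highest class, in the GFP-labelled library (left) and the sponge-labelled library (right). Slc16a8 is bright in RPE-like cells alone, with 357 and 876 CPM, while the enzymes of the middle of the pathway are spread over many classes.

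Between the libraries, few members differed by 2-fold or more, the size used here in place of a test. Pairs of a gene and a class were kept at 20 or more counts summed over the libraries, which gave 453 pairs. Of these, 12 pairs (2.65%) were at least 2-fold higher in the sponge-labelled library and 28 (6.18%) at least 2-fold lower. Over all genes, 3.68% of 197538 pairs were higher and 8.84% lower, so the members passed this fold in a share near or under the background. No class passed 2-fold for 18 of the 33 genes. With the estimated rod RNA subtracted, 89 pairs were higher and 10 lower. The rod marker share, which sets the amount subtracted, was higher in the GFP-labelled library in each of the 13 classes. Where a gene's levels are alike in both libraries, subtraction thus takes more from the GFP-labelled library and raises the ratio. The shift is therefore not read as a result about the members.

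Neural classes held few such pairs. In rod-like cells 0 of 33 members were 2-fold higher (1.81% of all measured genes) and 0 lower (4.18%), with a median log2 ratio (sponge over GFP) of -0.08 against 0.08 over all genes. Cone-like cells had 0 of 32 higher (3.49%) and 1 lower (4.36%), with a median of -0.01 against 0.10. Bipolar-like cells had 0 of 33 higher (1.22%) and 1 lower (6.73%). The bipolar median was -0.01 against 0.02, and the 1 lower gene was Hk2. Amacrine-like cells had 0 of 33 higher (2.58%) and 1 lower (3.62%), again Hk2, with a median of -0.03 against 0.08. Müller cluster 3 had 0 of 33 higher (2.05%) and 2 lower (8.42%), with a median of -0.02 against 0.09. Müller cluster 9 had 0 of 33 higher (2.92%) and 1 lower (6.41%), with a median of 0.03 against 0.05. Hk2 was among the lower genes in both Müller clusters.

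All 12 higher pairs lay outside the neural and Müller classes. RPE-like cells had 2 of 33 members higher (2.5% of all measured genes) and 5 lower (17.6%), with a median of 0.13 against -0.21 over all genes. Microglia and macrophage-like cells had 1 of 33 higher (4.31%) and 0 lower (9.14%), with a median of -0.07 against -0.10. T and NK-like cells, the smallest class with 184 and 92 cells, had 1 of 26 higher (10.1%) and 1 lower (6.46%), with a median of -0.09 against 0.07. The higher genes of these 3 classes, in that order, were Slc16a8 and Bsg, Slc16a3, and Pfkfb3. Endothelial-like cells had 3 of 33 higher (4.87%) and 3 lower (5.83%), with a median of -0.14 against 0.02. Pericyte and smooth muscle-like cells had 0 of 32 higher (6.61%) and 2 lower (5.31%), with a median of -0.09 against 0.05. Fibroblast-like cells had 3 of 33 higher (6.2%) and 0 lower (8.3%), with a median of -0.11 against -0.01. Bsg, the lactate carriers' chaperone, and Slc2a1 were among the higher genes in both endothelial-like and fibroblast-like cells. Melanocyte-like cells had 2 of 33 higher (3.27%) and 2 lower (10.5%), with a median of -0.12 against -0.10. Surface epithelium-like cells had 0 of 33 higher (3.73%) and 9 lower (23.5%), with a median of -0.35 against -0.37. In this last class the members' median lay near that of all genes, and median depth differed more than in any other class, at 5791 and 23407 UMIs per cell. Each lower gene there with at least 50 counts came under 2-fold in at least 1 alternative, with the log2 ratio nearest 0 running from -0.71 for Slc16a8 to -0.26 for Pfkp.

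**Figure D2:**
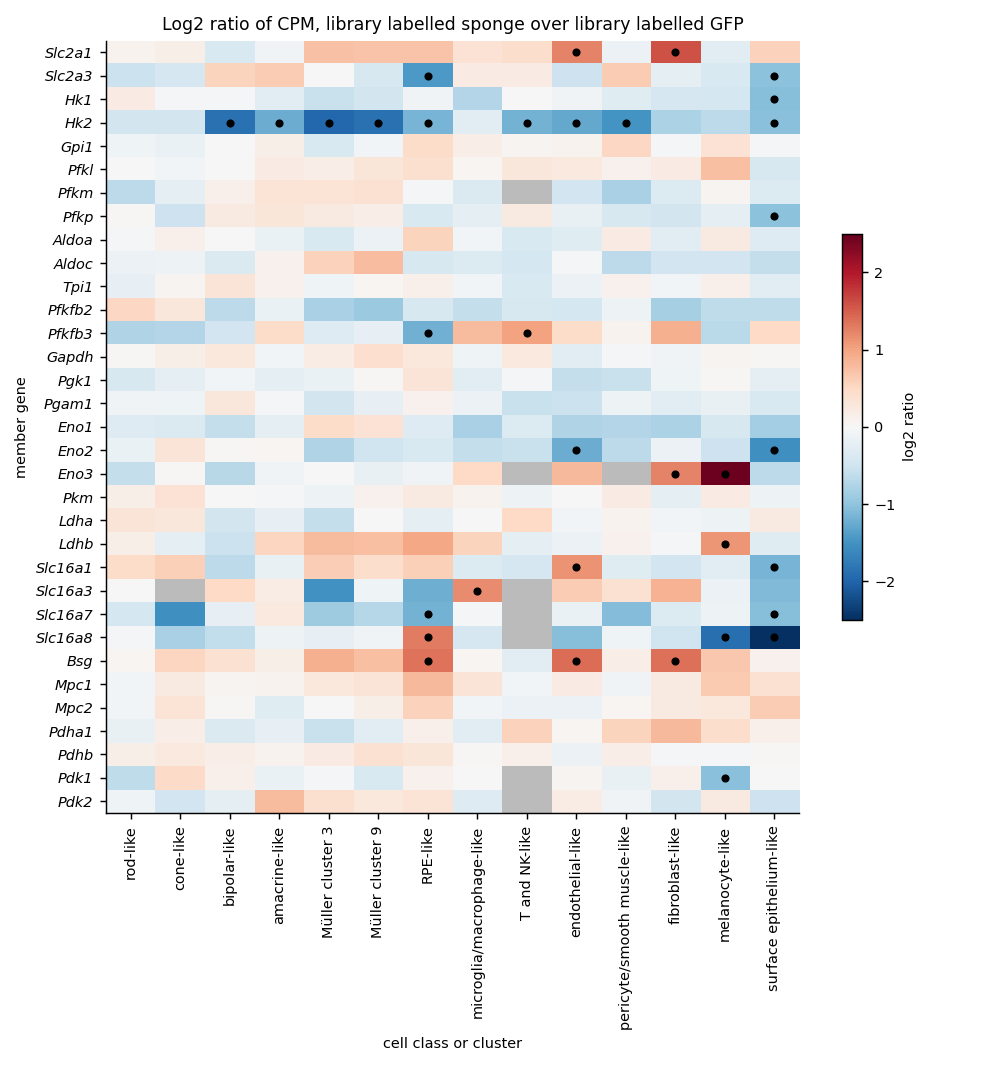
Log2 ratio of CPM, sponge-labelled library over GFP-labelled library, for each gene (rows) and class (columns); black dots mark at least 2-fold with at least 50 counts, grey cells were under 20 counts, and colour is capped at 2.5 in either direction. Hk2 is below 0 in all 14 columns, and Bsg is above 0 in 13 of 14.

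The main glucose carrier was highest in barrier cells. Slc2a1, which encodes GLUT1, the main glucose carrier of the blood-retina barriers, stood at 334 CPM (95% Poisson interval 315 to 353) in endothelial-like cells of the GFP-labelled library and 783 (755 to 813) in the sponge-labelled library. RPE-like cells followed with 275 and 452 CPM. Rods held 61.2 and 64.8 CPM, and in no other class of the GFP-labelled library did the level exceed the 121 CPM of Müller cluster 9. The Slc2a1 log2 ratio was 1.23 (95% interval 1.14 to 1.33) in endothelial-like cells, 1.60 (1.46 to 1.73) in fibroblast-like cells (76.6 against 232 CPM) and 0.72 in RPE-like cells, so the sponge-labelled library was the higher in each. In the finer fibroblast clusters 7, 26 and 31 the Slc2a1 values were 68.4 and 167, 72.1 and 167, and 136 and 313 CPM. Markers of these classes moved the same way. The 10 endothelial markers summed to 4482 and 9109 CPM in endothelial-like cells, with Cldn5 at 539 and 1749, and the 9 fibroblast markers to 4196 and 8923 CPM in fibroblast-like cells. Whether these shifts account for the Slc2a1 values was not tested. Slc2a3, the carrier GLUT3 known from neurons, was highest in amacrine-like cells at 36.3 and 56.7 CPM. It was lower in the sponge-labelled library in RPE-like cells (8.57 against 3.13 CPM) and surface epithelium-like cells (10.7 against 5.26 CPM).

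Hexokinase 2 was highest in photoreceptors. Hexokinases phosphorylate glucose and so hold it in the cell. Hk2 reached 508 CPM (472 to 546) in cones and 372 (359 to 385) in rods of the GFP-labelled library, and 372 (344 to 402) and 271 (263 to 280) in the sponge-labelled library. Surface epithelium-like cells followed in the GFP-labelled library with 321 CPM, and held 157 CPM in the other library. Hk2 made up 75.8% of Hk1 and Hk2 UMIs in cones (Clopper-Pearson 95% interval 72.9% to 78.4%) and 63.2% in rods (61.9% to 64.6%) in the GFP-labelled library. In the sponge-labelled library the shares were 70.2% in cones and 52.1% in rods. Surface epithelium-like cells had the highest share, 79.2% and 79.4%. Hk1, the widespread isoform, was highest in rods too, at 216 (206 to 227) and 250 (242 to 258) CPM. It passed 2-fold only in surface epithelium-like cells, at 84.5 against 40.6 CPM.

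Hk2 was lower in the sponge-labelled library in each of the 14 classes, by 2-fold or more in 9. The largest ratio was in Müller cluster 3, at 154 against 39.3 CPM (log2 ratio -1.96, interval -2.15 to -1.78). Bipolar-like cells followed with 163 against 44.7 CPM (-1.87, -1.98 to -1.76), and Müller cluster 9 with 142 against 38.9 CPM (-1.86). Rods and cones differed less, with log2 ratios of -0.46 (-0.52 to -0.39) and -0.45 (-0.60 to -0.30). The remaining 2-fold differences were in pericyte and smooth muscle-like cells (157 against 55.8 CPM), endothelial-like cells (122 against 50.2), amacrine-like cells (158 against 66.7), T and NK-like cells (170.3 against 75.0), RPE-like cells (112 against 50.1) and surface epithelium-like cells. In RPE cluster 19 Hk2 was at 108 and 17.6 CPM (-2.62), and in cluster 34, the larger in the sponge-labelled library, at 160.3 and 110.1 (-0.55). The Hk2 difference came under 2-fold in amacrine-like cells with rod RNA subtracted (-0.35) and by marker score. In endothelial-like cells it did so after thinning (-0.83), and in T and NK-like cells by marker score (-0.66) and with equal weights. RPE-like and surface epithelium-like cells came under 2-fold with median-of-ratios scaling, with rod RNA subtracted and with equal weights. Their log2 ratios nearest 0 were -0.36 and -0.67.

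Outside photoreceptors, much of this Hk2 signal was no larger than the estimated rod-carried level. An estimate above the measured level is too high, so it does not give the part of Hk2 that was rod RNA. In bipolar-like cells rod RNA would carry 188 CPM in the GFP-labelled library and 58.0 in the sponge-labelled library, more than the 163 and 44.7 CPM measured. In Müller cluster 3 it would carry 174 and 46.7 CPM, against 154 and 39.3 measured. Hk2 lay at or below the rod-carried level in 5 of 13 classes of the GFP-labelled library and in 4 of 13 of the sponge-labelled library. Endothelial-like cells had 122 CPM against 143 carried, and 50.2 against 46.4. Among the classes above it in both libraries, cones had 508 against 276 carried and 372 against 152; surface epithelium-like cells 321 against 82.0 and 157 against 17.6; fibroblast-like cells 276 against 159 and 160.3 against 43.6; and microglia and macrophage-like cells 212 against 149 and 174 against 60.1. The Hk2 share in bipolar-like cells, 50.01% and 21.9%, moved with the rod marker level, which was 50.6% and 21.4% of that of rods. In microglia and macrophage-like cells the share went the other way, from 64.2% to 71.0%, while rod markers went from 40.2% to 22.2%. The part played by rod RNA in the Hk2 differences was not tested. In rods, where no such correction applies, both finer rod clusters gave a log2 ratio of -0.47.

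**Figure D3:**
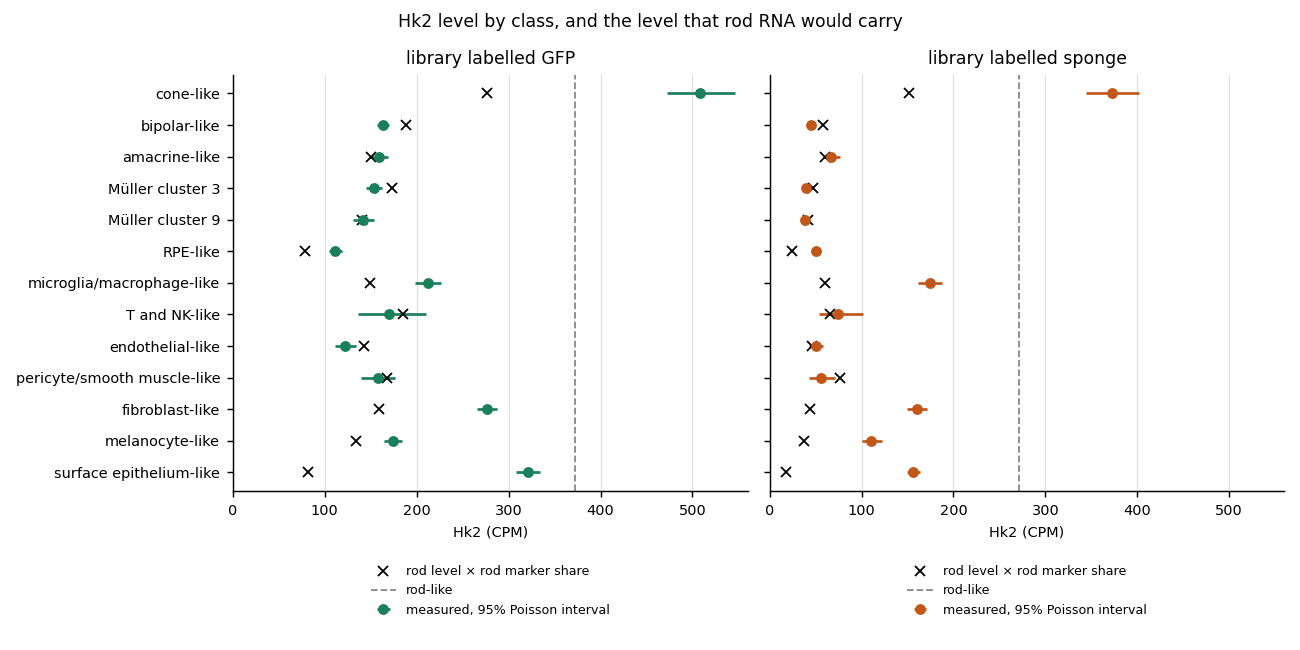
Hk2 level (CPM, dots with 95% Poisson intervals) in the 13 classes other than rods, with the level that rod RNA would carry (crosses) and the rods' own level (dashed line) in each library. Dots for bipolar-like cells and Müller cluster 3 lie at or left of their crosses, and those for cones, fibroblast-like and surface epithelium-like cells lie to the right.

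The upper steps after hexokinase had 0 of 97 pairs 2-fold higher (3.68% over all genes) and 1 lower (1.03%, against 8.84%). Gpi1, which turns glucose 6-phosphate into fructose 6-phosphate, was highest in rods (171 CPM) in the GFP-labelled library and in pericyte and smooth muscle-like cells (204 CPM, interval 179 to 232) in the sponge-labelled library. Tpi1, triose phosphate isomerase, led in rods (279 CPM) and in bipolar-like cells (319 CPM) respectively. Phosphofructokinase, the committing step, was mainly the platelet-type gene Pfkp, at 52.6% to 80.02% of family UMIs over classes and libraries. Pfkp was highest in amacrine-like cells, at 238 (226 to 251) and 292 (274 to 311) CPM, with 235 and 275 CPM in bipolar-like cells. The amacrine share of Pfkp was 79.5% and 80.02%, against 59.3% and 52.6% in cones. The 1 lower pair was Pfkp in surface epithelium-like cells, at 111 against 54.8 CPM, a log2 ratio that came to -0.26 after thinning. Pfkl, the liver-type gene, took 29.0% and 29.5% of the family in rods but 13.9% and 13.2% in amacrine-like cells. Its share was higher in the sponge-labelled library in RPE-like cells (28.0% and 39.1%) and melanocyte-like cells (26.1% and 40.8%), with intervals that did not overlap. Pfkm, the muscle-type gene, was the minor isoform, with its largest share in cones, at 13.2% (9.48% to 17.8%) and 14.2% (10.2% to 18.9%).

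Aldolase C marked Müller glia. Aldolase cleaves fructose 1,6-bisphosphate, and Aldoc is known as the form of astrocytes and related glia, while Aldoa is widespread. Aldoc stood at 285 CPM (268 to 301) in Müller cluster 9 and 187 (177 to 197) in Müller cluster 3 in the GFP-labelled library, and at 489 (474 to 504) and 279.8 (268 to 292) in the sponge-labelled library. Rods, the next of the neural classes, held 139 and 126 CPM. The Aldoc share was 26.5% and 41.3% in cluster 3 and 36.3% and 52.0% in cluster 9, against 14.7% and 13.9% in rods and 10.6% and 5.84% in RPE-like cells. The Müller marker list moved the same way, at 12021 and 20682 CPM in cluster 3 and 13116 and 21182 in cluster 9, while rod marker RNA in cluster 3 went from 46.7% to 17.2% of the rods' level. Aldoa was highest in rods, at 807 CPM, in the GFP-labelled library and in RPE-like cells, at 851 CPM, in the sponge-labelled library.

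Of the genes that set fructose 2,6-bisphosphate, the activator of phosphofructokinase, the 2 members split between photoreceptors and immune cells. Pfkfb2 led in rods at 167 (158 to 176) and 239 (231 to 247) CPM, followed by cones at 125 and 151. In rods its log2 ratio was 0.52 (0.43 to 0.61), below 2-fold. It lay at or below the rod-carried level in 3 and 2 of the other 13 classes. Pfkfb3, the inducible form known from activated immune and endothelial cells, led in microglia and macrophage-like cells at 64.7 (57.2 to 72.9) and 113 (103 to 123) CPM, against 15.05 and 8.91 in rods. Within that class, finer cluster 14 held 67.2 and 138 CPM, and cluster 32, led by immunoglobulin genes, 33.1 and 11.2 CPM. B and plasma cell markers in the class as a whole summed to 617 and 20457 CPM, so its cells were not of one kind, and their part in these values was not tested. In RPE-like cells Pfkfb3 was lower in the sponge-labelled library (7.93 against 3.42 CPM), and in T and NK-like cells it was higher (31.3 against 64.0 CPM, on 16 and 35 counts, log2 interval 0.14 to 1.98). Both came under 2-fold in other settings, to -0.31 and 0.74.

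Lower glycolysis divided the neurons from Müller glia at enolase, which makes phosphoenolpyruvate. Eno1 was highest in Müller cluster 9, at 809 (781 to 837) and 1040.2 (1019 to 1062) CPM, and second in cluster 3, at 671 and 928 CPM, against 376 and 301 in rods. Its near-identical copy Eno1b makes the Eno1 count uncertain. Eno2, the neuronal enolase, was highest in cones, at 142 (123 to 163) and 177 (157 to 197) CPM, with 123 and 125 CPM in bipolar-like cells. It took 29.4% and 39.7% of enolase UMIs in cones, 32.1% and 42.1% in bipolar-like cells and 25.8% and 27.8% in rods. In Müller cluster 3 it took 11.6% and 5.37%, and in cluster 9 8.67% and 4.95%, so the gap between neurons and Müller glia held in both libraries. A high Eno2 share was not confined to neurons. It was 27.3% and 36.2% in fibroblast-like cells and 26.1% and 26.9% in pericyte and smooth muscle-like cells. Eno2 was lower in the sponge-labelled library in endothelial-like cells (73.5 against 30.8 CPM, and -0.82 on the log2 scale after thinning) and surface epithelium-like cells (48.7 against 16.9 CPM).

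Eno3, the muscle enolase, gave the largest single ratio among the members with at least 50 counts that were higher. In melanocyte-like cells it stood at 10.4 CPM (74 counts) in the GFP-labelled library and 57.6 CPM (222 counts) in the sponge-labelled library, a log2 ratio of 2.46 (2.08 to 2.87). Its share of enolase UMIs there was 2.86% and 17.9%. Both finer melanocyte clusters showed it, at 13.7 and 64.1 CPM and at 8.31 and 41.3 CPM. The 8 melanocyte markers also stood higher, at 22092 and 34017 CPM. In fibroblast-like cells Eno3 was 2.85 and 6.79 CPM, on 25 and 36 counts. Only finer cluster 31 (320 and 284 cells) was the higher in the sponge-labelled library, at 1.10 and 12.2 CPM, while cluster 7 (1947 and 302 cells) had 3.43 and 3.37 and cluster 26 (800 and 52 cells) had 2.5 and 0. By marker score the fibroblast-like log2 ratio was 0.30. In T and NK-like cells, its highest class in the GFP-labelled library, 15.7 CPM rested on 8 counts.

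The remaining lower steps passed 2-fold in no class. Gapdh, glyceraldehyde phosphate dehydrogenase, was highest in rods (1043 CPM) in the GFP-labelled library and in Müller cluster 9 (1205 CPM) in the sponge-labelled library. Pgk1, the first enzyme of the pathway to yield ATP, was highest in rods (266 CPM) and in RPE-like cells (252 CPM) respectively. Pgam1, phosphoglycerate mutase, led in rods (347 CPM) and bipolar-like cells (395 CPM). Pkm, which makes pyruvate and whose 2 splice forms a gene count cannot separate, led in rods (541 CPM) and cones (617 CPM). Gapdh, Pgk1, Pgam1 and Ldha have many processed pseudogenes that can take reads, so their levels are less certain than those of the carriers.

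Lactate dehydrogenase isoforms set RPE, Müller glia and melanocytes apart from photoreceptors and from several other classes. Ldha favours lactate formation and Ldhb favours lactate use. Ldha was highest in rods, at 334 (322 to 347) and 419 (409 to 430) CPM, with cones next at 313 (284 to 343) and 382 (353 to 412). The rod and cone intervals overlapped in the GFP-labelled library and also, narrowly, in the sponge-labelled library. Ldhb was highest in RPE-like cells, at 222 (212 to 233) and 437 (421 to 452) CPM, followed by melanocyte-like cells at 192 and 412. Müller clusters 3 and 9 held 137 and 168 CPM in the GFP-labelled library and 236 and 284 in the sponge-labelled library. Rods held 83.9 and 92.3 CPM of Ldhb, and bipolar-like cells the least of any class, 64.0 and 44.3 CPM.

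As shares, Ldhb took 62.6% (60.8% to 64.4%) and 79.5% (78.2% to 80.7%) of the pair in RPE-like cells, and 49.0% and 69.3% in melanocyte-like cells. It took 42.3% and 65.6% in Müller cluster 3 and 47.4% and 60.4% in cluster 9. In rods it took 20.1% (18.7% to 21.5%) and 18.05% (17.2% to 18.9%), and in cones 21.4% and 16.1%. In both libraries the RPE-like, melanocyte-like and Müller shares lay above those of rods and cones, and those 4 were higher in the sponge-labelled library. So were the shares in amacrine-like cells (29.0% and 40.6%) and microglia and macrophage-like cells (33.4% and 42.7%). The share was lower there in cones, T and NK-like cells (29.3% and 19.7%) and surface epithelium-like cells (24.0% and 17.8%). It moved by -0.90 to 0.35 points in bipolar-like, endothelial-like, pericyte and smooth muscle-like and fibroblast-like cells. Low Ldhb shares were thus not confined to photoreceptors. Bipolar-like cells had 23.2% and 22.3%, and endothelial-like cells 26.4% and 25.6%. Fibroblast-like cells had 25.8% and 26.1%, and pericyte and smooth muscle-like cells 27.8% and 28.0%. Rod RNA would carry 156 of the 188 CPM of Ldha in Müller cluster 3 of the GFP-labelled library and 72.2 of 124 in the sponge-labelled library. Of Ldhb it would carry 39.1 of 137 and 15.9 of 236 CPM. Rod marker RNA was lower in the sponge-labelled library in all 13 of these classes, whichever way the Ldhb share went, and its part in the share differences was not tested. The single 2-fold pair was Ldhb in melanocyte-like cells, with a log2 ratio of 1.10 (0.99 to 1.20). RPE-like cells lay just under it at 0.97 (0.89 to 1.06), with Ldhb at 223 and 487 CPM in finer cluster 19 and at 205 and 343 in cluster 34.

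**Figure D4:**
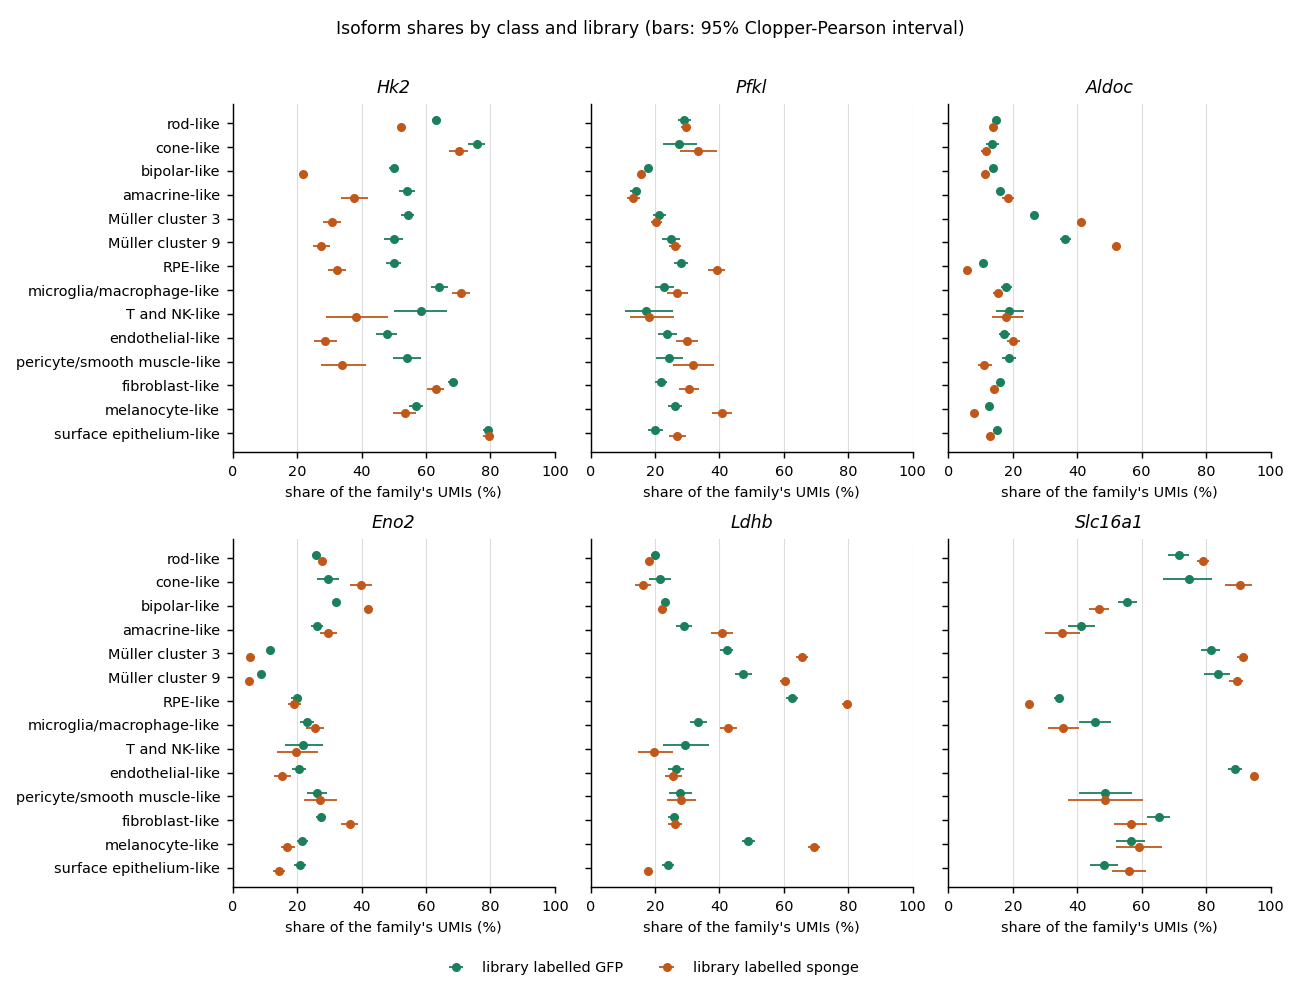
Share of family UMIs held by 1 isoform in each class, with 95% Clopper-Pearson intervals, for 6 families. The Ldhb share runs from 16.1% in cones to 79.5% in RPE-like cells of the sponge-labelled library, Aldoc is highest and Eno2 lowest in the Müller clusters, and the Hk2 share is lower in the sponge-labelled library in most classes.

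Monocarboxylate carriers gave the clearest division of labour between classes. Slc16a8 (MCT3), known as the basolateral lactate exporter of the RPE, was at 357 (344 to 371) CPM in RPE-like cells of the GFP-labelled library and 876 (854 to 898) in the sponge-labelled library, a log2 ratio of 1.29 (1.23 to 1.36). Every other class held at most 17.5 CPM. Slc16a8 lies on chromosome 15 (79251014 to 79254761, minus strand, mm10) and took 62.7% (61.3% to 64.1%) and 74.4% (73.4% to 75.3%) of the 4 carriers' UMIs in RPE-like cells. Different finer clusters held most of the class in each library: cluster 19 had 953 and 161 cells, and cluster 34 193 and 296. The top 10 genes of cluster 34 included eGFP, RPE genes and the microglia and macrophage marker Cd74. Whole cluster 34 had median UMIs of 1734 and 2039, against 6443 and 25042 in whole cluster 19. Cluster 19 held 365 and 980 CPM of Slc16a8 and cluster 34 held 235 and 683. The sponge-labelled library was higher in both. RPE markers summed to 49500 and 71703 CPM in the class, with Rpe65 at 3832 and 5533, and microglia and macrophage markers to 293 and 1140. In the surface epithelium-like and melanocyte-like classes Slc16a8 went the other way, from 17.5 to 2.94 and from 8.03 to 2.08 CPM. RPE markers in those classes went from 3298 to 587 and from 2095 to 1754 CPM.

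Slc16a1 (MCT1), the widespread carrier, was highest in endothelial-like cells at 219 (205 to 235) and 479 (457 to 502) CPM, a log2 ratio of 1.13 (1.01 to 1.25), or 0.95 after thinning. There it took 89.1% and 94.97% of the 4 carriers' UMIs. RPE-like cells came next at 195 (186 to 205) and 294 (282 to 307) CPM, followed in the GFP-labelled library by Müller cluster 3 (79.9 and 123), cones (72.6 and 111), Müller cluster 9 (67.6 and 91.6) and rods (65.9 and 90.6). In Müller clusters, rods and cones Slc16a1 was the main carrier, with 71.5% to 91.4% of family UMIs. Surface epithelium-like cells held 33.6 and 15.1 CPM. Slc16a7 (MCT2), a high-affinity carrier of neurons, was highest among the classes compared in amacrine-like cells, at 43.5 (38.3 to 49.3) and 51.4 (43.9 to 59.9) CPM. It took 45.3% and 51.9% of the family there. Cluster 11 (1241 and 463 cells), left out because it could not be named, had Slc16a7 among its top 10 genes. Its best marker match was bipolar, with cone close in score. Microglia and macrophage-like cells came second by level, with 35.1 and 34.5 CPM and 37.3% and 36.5% of the family. Among the bipolar clusters its share was 41.8% and 49.1% in cluster 15 but 13.5% and 14.2% in cluster 2, so bipolar types differed. Slc16a7 was lower in the sponge-labelled library in RPE-like cells (14.1 against 6.12 CPM) and surface epithelium-like cells (15.9 against 7.66 CPM). With cells weighted equally the RPE-like direction turned, to a log2 ratio of 0.36.

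Slc16a3 (MCT4), an exporter of strongly glycolytic cells, was scarce. Its highest level was 11.3 CPM in pericyte and smooth muscle-like cells of the GFP-labelled library and 21.3 in microglia and macrophage-like cells of the sponge-labelled library, where it had been 9.37 (39 and 89 counts, log2 ratio 1.18, 0.63 to 1.77). Finer microglia cluster 14 held 9.08 and 24.5 CPM, while the microglia and macrophage markers of the class summed to 8147 and 19680 CPM. Without the highest doublet scores the log2 ratio was 0.98. Bsg encodes basigin, the chaperone that brings MCT1, MCT3 and MCT4 to the membrane. It was highest in endothelial-like cells, at 1664 (1623 to 1705) and 4408 (4340 to 4476) CPM, and second in RPE-like cells, at 1308 (1282 to 1333) and 3367 (3325 to 3411). Müller clusters followed at 507 to 1037 CPM, and rods held 316 and 329. Log2 ratios were 1.41 (1.36 to 1.45) in endothelial-like, 1.36 (1.33 to 1.40) in RPE-like and 1.37 (1.30 to 1.44) in fibroblast-like cells. In RPE-like cells Bsg and Slc16a8 were 2-fold higher in the sponge-labelled library, and Ldhb and Slc2a1 higher by less. Slc16a7, Slc2a3, Hk2 and Pfkfb3 were 2-fold lower there on summed counts, but with every cell weighted equally their log2 ratios were 0.36, -0.22, -0.74 and -0.31. Thinning or equal weights brought the fibroblast-like log2 ratio to 0.87. Fibroblast clusters 7, 26 and 31 had Bsg at 356 and 1445, 286 and 400, and 276 and 473 CPM.

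**Figure D5:**
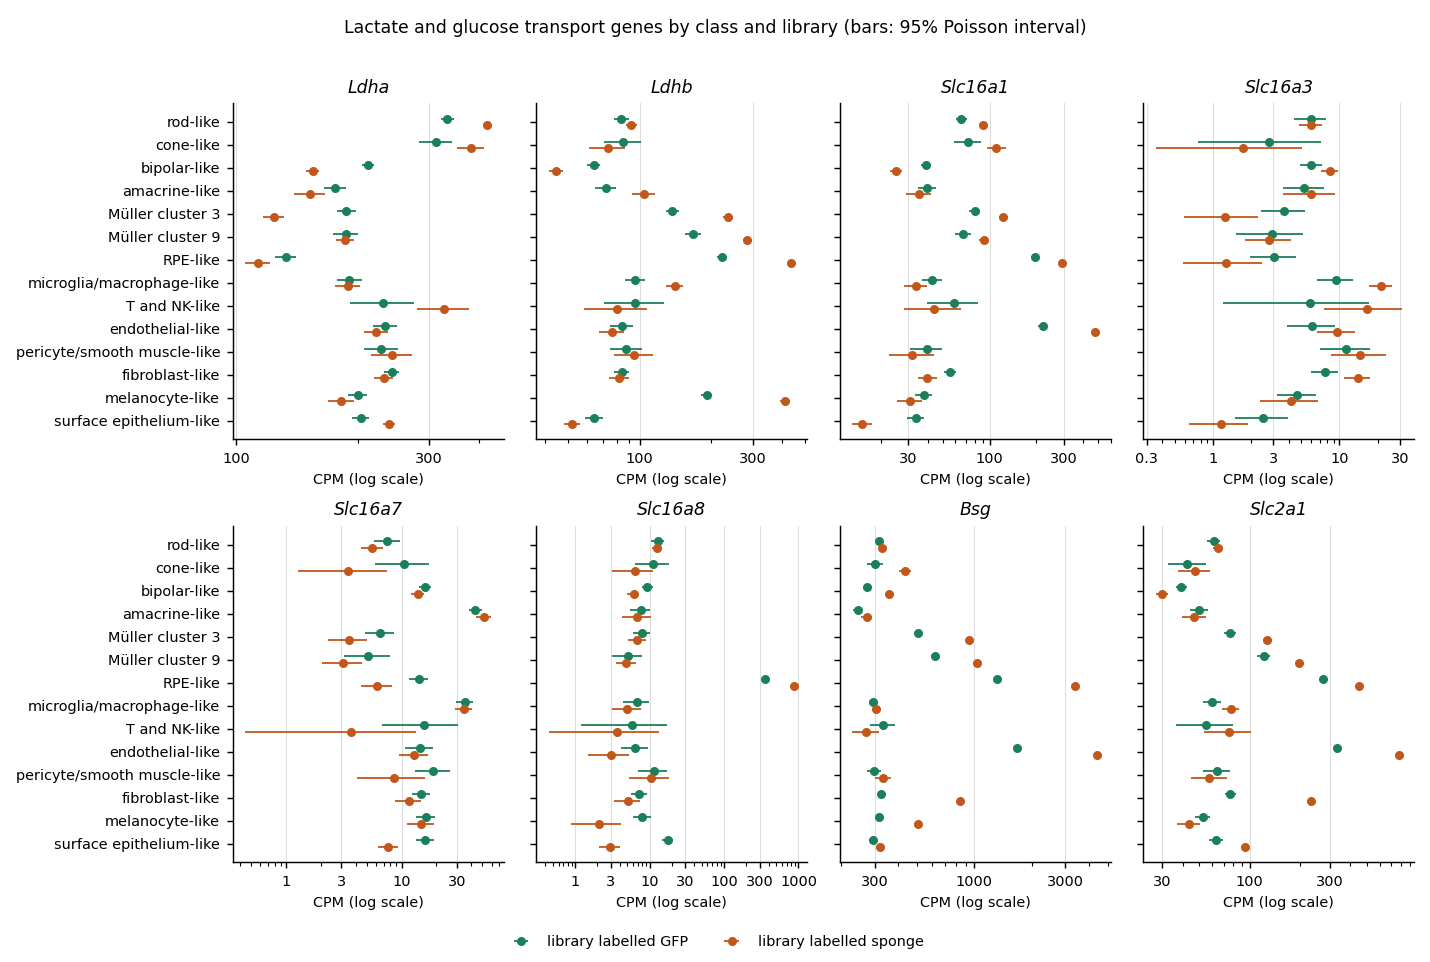
CPM on a log scale, with 95% Poisson intervals, of the lactate dehydrogenases, the monocarboxylate carriers, Bsg and Slc2a1 in 14 classes of both libraries. Slc16a8 stands apart in RPE-like cells (357 and 876 CPM), and Bsg, Slc16a1 and Slc2a1 peak in endothelial-like cells.

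The mitochondrial pyruvate genes had 0 of 82 pairs 2-fold higher (3.68% over all genes) and 1 lower (1.22%, against 8.84%). Mpc1 and Mpc2 form the carrier that takes pyruvate into mitochondria. Mpc1 was highest in RPE-like cells, at 195 (186 to 205) and 341 (328 to 355) CPM, and Mpc2 in surface epithelium-like cells, at 174.4 (165 to 184) and 272 (263 to 281), although Müller cluster 9 held 174.2 in the GFP-labelled library. Pdha1 and Pdhb encode subunits of pyruvate dehydrogenase. Pdha1 led in cones (62.8 CPM) in the GFP-labelled library and in fibroblast-like cells (102 CPM) in the sponge-labelled library. Pdhb led in T and NK-like cells, at 56.8 and 62.2 CPM, with wide intervals (38.0 to 81.5 and 43.1 to 86.9) that took in most other classes. Pdk1 and Pdk2 phosphorylate and so inhibit that enzyme. Pdk1 was highest in endothelial-like cells (23.7 and 24.8 CPM) and was lower in the sponge-labelled library in melanocyte-like cells (13.7 against 6.49 CPM), where its log2 ratio was -0.01 after thinning and turned to 0.54 by marker score. Pdk2 was highest in RPE-like cells, at 30.3 and 38.6 CPM.

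By role, hexokinases and monocarboxylate transport held most of the 2-fold pairs, against the 3.68% higher and 8.84% lower over all genes. Hexokinases had 0 of 28 pairs higher and 10 lower (35.7%), of which 9 were Hk2. The 5 monocarboxylate transport genes had 6 of 66 higher (9.09%) and 11 lower (16.7%). Glucose transporters had 2 of 28 higher and 2 lower (7.14% each), lower glycolysis 2 of 96 higher and 2 lower (2.08% each), lactate dehydrogenases 1 of 28 higher (3.57%) and 0 lower, and the Pfkfb genes 1 of 28 higher and 1 lower (3.57% each).

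Other genes of the pathway, 126 in 6 lists, passed the fold in shares on either side of the 3.68% higher and 8.84% lower over all genes. Other isoforms and steps had 8 of 233 pairs higher (3.43%) and 24 lower (10.3%). Slc2a13, a carrier of myo-inositol, was named in 7 classes and lower in each, with 109 and 39.0 CPM in rods and 31.5 and 4.96 in Müller cluster 3. Hk3, the hexokinase of myeloid cells, was higher in microglia and macrophage-like cells (9.85 and 26.1 CPM). Other lactate and pyruvate genes had 8 of 294 higher (2.72%) and 15 lower (5.10%), with the amino acid carrier Slc16a10 at 54.6 and 165 CPM in microglia and macrophage-like cells. The pentose phosphate pathway, which branches from glucose 6-phosphate, had 8 of 112 higher (7.14%) and 2 lower (1.79%). Its transketolase Tkt, a known corneal crystallin, stood at 336 and 1449 CPM in surface epithelium-like cells and at 65.2 and 157 in fibroblast-like cells, and its transaldolase Taldo1 at 252 and 522 CPM in RPE-like cells.

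Glycogen genes had 1 of 179 pairs higher (0.559%) and 7 lower (3.91%). The 1 higher was Gyg, the glycogen primer, in surface epithelium-like cells, at 71.6 and 183 CPM. Regulators of glycolysis had 14 of 289 higher (4.84%) and 18 lower (6.23%). Txnip, which limits glucose uptake, was higher in endothelial-like (57.8 and 118 CPM), fibroblast-like and microglia and macrophage-like cells. Nxnl1, the rod-derived cone viability factor, was lower in 5 classes outside photoreceptors, such as Müller cluster 3 (65.6 and 28.8 CPM), where rod marker RNA was lower as well. Hypoxia-induced genes outside the pathway had 12 of 236 higher (5.08%) and 17 lower (7.20%), and did not move one way. Adm, the vasodilator peptide adrenomedullin, was higher in 4 classes, including endothelial-like cells (23.4 and 81.6 CPM), while Tfrc, the transferrin receptor, was lower in 4, including melanocyte-like cells (65.1 and 23.1 CPM). Vegfa was lower in surface epithelium-like cells (42.1 and 17.8 CPM).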

How the data were processed

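The deposited files hold raw UMI counts per gene and cell barcode, made by the authors with Cell Ranger 7.0.0 on mm10, per the submitters' processing notes. The handling of intronic reads and the calling of cells are not given in the sources used here. Gene coordinates come from GENCODE M21 and promoters from RefSeq (GRCm38.p6).

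Kept barcodes had 300 or more genes, 500 or more UMIs and a mitochondrial share of 25% or less (176 and 67 removed). Scrublet in scanpy 1.11.5 marked 0 cells as doublets in either library and did not work, so none were removed. Clusters were drawn over both libraries from 2000 variable genes, without the members, the other pathway lists and eGFP. Leiden clustering (leidenalg 0.10.2) at resolution 1, with 15 neighbours in 30 principal components, gave 25 clusters. A cluster took the name of a class with at least 3 of its markers 2-fold up, no unrelated class close in score, and no unrelated marker among its top 10 genes. This rule was set after seeing the clusters. UMIs were summed per class and library and given as CPM. Log2 ratios are the sponge-labelled over the GFP-labelled library with 0.5 added to each count, and intervals of 95% are exact Poisson for CPM, Clopper-Pearson for shares and exact binomial for ratios. No test over samples exists with 1 library per group. The ratio and interval code was tested on simulated data.

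Classes needed 50 cells in each library and shares 50 family UMIs. Members are named with values where at least 2-fold different with 50 counts, or where highest. Genes of other lists are named at 2-fold, 100 counts and 20 CPM, at most 3 per class, list and direction. The members, lists and rules were chosen with earlier results of these data known. Alternatives were another scaling, other count minimums, stricter cells, finer clusters, classes by marker score, thinning to 1000 UMIs, equal weights per cell, subtraction of rod RNA and removal of high doublet scores. Leaving out barcodes found in both libraries was added after seeing the data.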

Additional observations from a re-analysis of the deposited data

Results flagged for a closer look

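The eGFP sequence, which no comparison above uses, had 5484 UMIs (41.6 CPM) in the sponge-labelled library and 12 UMIs (0.0978 CPM) in the GFP-labelled library. In RPE-like cells it stood at 674 and 1.15 CPM.

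Among members with at least 50 counts, 3 passed 2-fold in opposite directions in different classes, and the difference between the classes was not tested. Slc16a8 had log2 ratios of 1.29 in RPE-like cells, -1.88 in melanocyte-like cells and -2.56 in surface epithelium-like cells. Its level outside RPE-like cells was at most 17.5 CPM. RPE markers were lower in the sponge-labelled library too, at 2095 and 1754 CPM in melanocyte-like and 3298 and 587 in surface epithelium-like cells. The part of RPE RNA in these 2 ratios was not tested. For Slc16a1 the log2 ratios were 1.13 in endothelial-like cells and -1.15 in surface epithelium-like cells. Pfkfb3 had 1.01 in T and NK-like cells and -1.20 in RPE-like cells. Not all of these held under other settings: the log2 ratio nearest 0 was 0.74 for Pfkfb3 in T and NK-like cells (16 and 35 counts) and -0.31 in RPE-like cells, 0.95 for Slc16a1 in endothelial-like cells and -0.40 in surface epithelium-like cells, and -0.71 for Slc16a8 in surface epithelium-like cells.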

How the results depend on the processing

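Results below were recomputed with 1 choice changed at a time. No paired analysis was possible because each group holds 1 library. Count minimums of 1 or 100, Leiden resolution 2 and leaving out shared barcodes moved no median beyond the usual counting error of single genes. That is a loose limit for a median. No share difference passed its own counting error, and no pair count passed a fixed fold of the main one. Subtracting rod RNA moved the members' median log2 ratio to 1.32 in cones, 0.87 in bipolar-like, 0.72 in amacrine-like, 0.94 in Müller cluster 3, 0.73 in Müller cluster 9, 0.52 in RPE-like, 0.63 in microglia and macrophage-like, 0.79 in T and NK-like, 0.66 in endothelial-like, 0.49 in pericyte and smooth muscle-like, 0.77 in fibroblast-like, 0.63 in melanocyte-like and 0.31 in surface epithelium-like cells. It gave 89 pairs 2-fold higher and 10 lower, a shift not read as a result about the members, as given above. Lower pairs numbered 16 with median-of-ratios scaling, 13 by marker score, 10 after thinning and 13 with equal weights. The RPE-like median was 0.34, 0.56 and 0.36 with median-of-ratios scaling, thinning and equal weights. The surface epithelium-like median was 0.014, -0.12 and -0.16 in the same order. The microglia and macrophage-like median was 0.24 after thinning and 0.17 with equal weights, and the melanocyte-like median 0.10 in stricter cells and 0.46 by marker score.

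Share differences, rods minus Müller cluster 3, kept their sign, in points for the GFP-labelled then the sponge-labelled library. With rod RNA subtracted they were 63.2 and 52.1 for Hk2, -31.5 and -35.5 for Aldoc, 20.7 and 24.3 for Eno2, -55.5 and -63.0 for Ldhb, and -17.9 for Slc16a1 (GFP-labelled). These Hk2 values are the rods' own shares. Hk2 in Müller cluster 3 lay below the rod-carried level in both libraries and subtraction left none, so that sign was fixed in advance. The main Pfkm shares in the GFP-labelled library were 7.72% in rods and 7.79% in Müller cluster 3, too close for a sign to be read. In stricter cells the share differences were -4.45 for Pfkm, -13.6 for Aldoc, -26.7 and -49.8 for Ldhb, 17.2 and 23.8 for Eno2, and -14.9 for Slc16a1. By marker score Aldoc gave -17.0 and -30.2. After thinning, Hk2 gave 12.0 (GFP-labelled), Pfkm -1.76 and Ldhb -45.5 (sponge-labelled). For the sponge-labelled library, equal weights gave -24.6 for Aldoc and -45.0 for Ldhb, and removing high doublet scores 24.4 for Hk2 and -50.0 for Ldhb.

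Single pairs past 2-fold in every alternative that gave a value were Slc16a8 and Bsg in RPE-like, Slc2a1 and Bsg in endothelial-like, Slc2a1 in fibroblast-like, Eno3, Ldhb and Slc16a8 in melanocyte-like cells, and Hk2 in bipolar-like, pericyte and smooth muscle-like cells and both Müller clusters. With rod RNA subtracted Hk2 has no value in those last 4, since it lay at or below the rod-carried level in at least 1 library, nor in T and NK-like or endothelial-like cells. Slc16a7 in RPE-like cells reversed to 0.36 with equal weights, and Pdk1 in melanocyte-like cells to 0.54 by marker score. The cause of these changes was not tested. Müller cluster 9 has no value by marker score, which gives 1 Müller class. Depth limits the scarce carriers: Slc16a3 and Slc16a7 rested on under 50 counts in several classes. Slc16a8 in melanocyte-like cells stood at only 2.08 CPM in the sponge-labelled library.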
